A study of Mus musculus with 4 samples.

Results

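The genes described here are the enzymes of glycolysis below hexokinase, the lactate transporters and the genes of the hypoxia response, in RAW264.7 cells given 1,5-anhydroglucitol (1,5-AG). They were taken by name from a list of 36 genes, 20 of them glycolytic and 16 of the hypoxia pathway. The deposited table of 21523 gene identifiers held 35 of the 36, and the expression of the lactate dehydrogenase gene Ldhb was not analysed here. RAW264.7 is a mouse line with macrophage properties, grown out of a tumour that a leukaemia virus had caused, and 1,5-AG is a naturally occurring polyol built like glucose without its anomeric hydroxyl group. The treated group was 2 libraries of cells kept with 0.5 mM 1,5-AG for 24 h, and the control group was 2 libraries of cells of the same line with no treatment. Both were grown in the same serum-supplemented medium. The labels give no culture time for the controls and do not say whether the libraries of a group came from separate cultures, so the p-values speak for the spread among the 4 libraries alone, and that spread may be technical.

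Glycolysis splits glucose into pyruvate, which lactate dehydrogenase turns into lactate for export, and activated macrophages are known for a high glycolytic rate. Hypoxia-inducible factor 1 (HIF-1) is a transcription factor whose alpha subunit is marked for destruction by oxygen-dependent prolyl hydroxylases. When oxygen falls, the subunit persists, binds the letters ACGTG or GCGTG in DNA and raises many glycolytic genes together with genes of angiogenesis, mitophagy and collagen modification.

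Messenger RNA was measured as FPKM, the fragments of a gene scaled to its exon length and to the fragments of the library. Libraries held 14616556 to 15112965 gene-assigned fragments with 1,5-AG and 15163807 to 16228673 in control. The macrophage markers Cd68 (471.8 and 479.0 FPKM with 1,5-AG, 499.6 and 497.9 FPKM in control) and Csf1r (237.2 and 240.4 FPKM with 1,5-AG, 258.1 and 258.4 FPKM in control) were abundant. The summed level of 8 macrophage markers was 3958 and 3863 FPKM with 1,5-AG, against 5482 and 5335 FPKM in control. Most of that difference came from the lysozyme gene Lyz2, which fell by 0.56 on the log2(FPKM + 1) scale (limma adjusted p = 0.0168). Adgre1 was also lower, with 16.9 and 17.5 FPKM with 1,5-AG, against 20.1 and 23.4 FPKM in control (limma adjusted p = 0.139). Limma called 1 of 7 tested markers lower (0.648% of all genes). Voom, a fit on recovered fragments, called 3 lower (4.66% of all genes) and 0 higher (3.65%). Itgam and Fcgr1 had positive differences, with overlapping groups. The part of these markers in the results below was not tested. The summed levels of fibroblast, epithelial, B cell and neutrophil markers stayed below 0.52 FPKM in every library, and those of T and NK cell markers between 1.19 and 1.37 FPKM. In bulk RNA, fewer cells that express a gene and less RNA per cell cannot be told apart.

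The question put to these genes is whether 1,5-AG moved them, and whether glycolytic and other HIF-1 targets moved alike. Of the hypoxia genes 3 rose and an aldolase isozyme fell. Ddit4, which encodes an inhibitor of mTORC1, Vegfa, the endothelial growth factor, and Ero1l, an oxidase of the endoplasmic reticulum, were 1.66, 1.40 and 1.26 times as high with 1,5-AG as in control by mean FPKM. Aldoc, a minor aldolase here, was at 0.803 times its control mean. No glycolytic gene rose by this test, and the abundant enzymes differed by little.

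Of the 35 genes, 32 had a mean of at least 1 FPKM and entered the limma test on log2(FPKM + 1), in which p-values were adjusted over all 11118 genes that passed this filter. Adm, Egln3 and P4ha2 lay below it. The test called 1.46% of all genes. It called 3 of the 32 higher, where 0.809% of all genes tested were called higher, and 1 of the 32 lower, against 0.648% of all genes. The adjusted p of the 4 called genes lay between 0.0408 and 0.0489. None of the 4 passed when any 1 of the 4 libraries was left out, refits in which 2 to 10 genes passed in all.

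**Figure D1:**
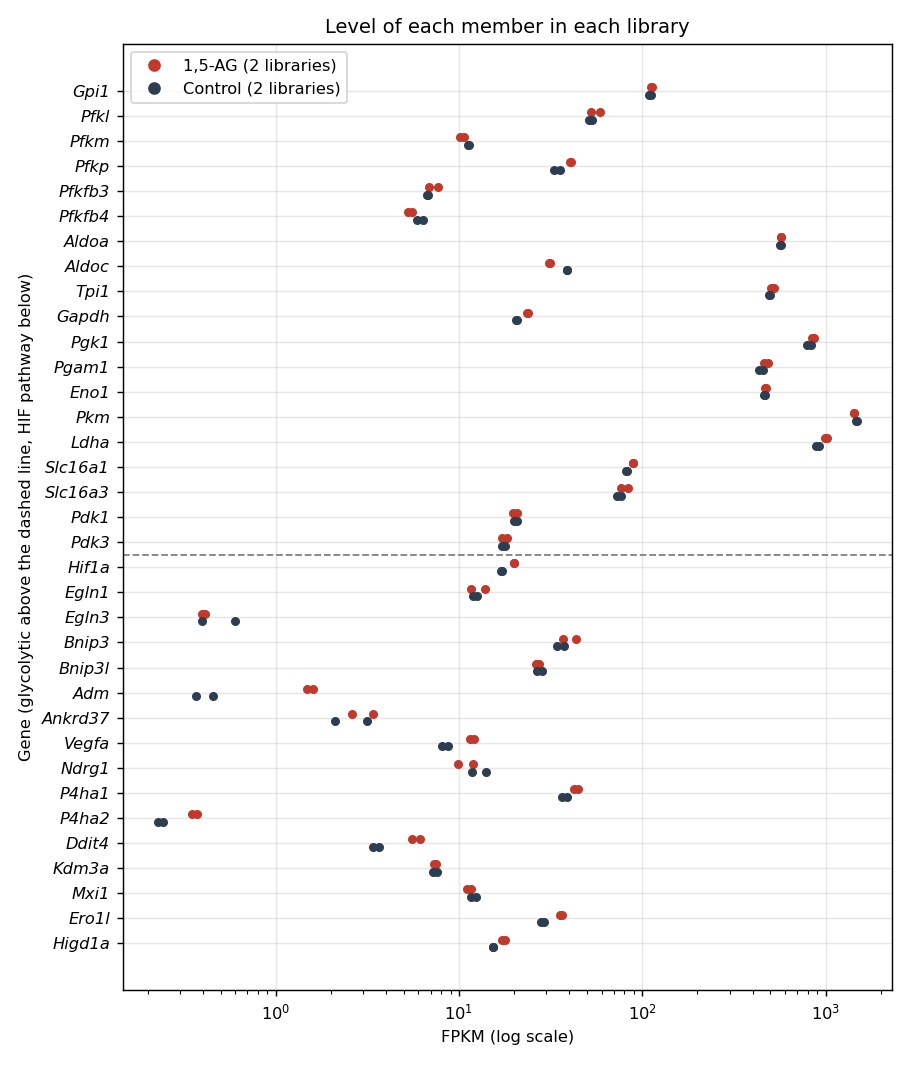
FPKM of the 35 measured genes (rows, in pathway order) in each library on a log axis, with 1,5-AG libraries in red above control libraries in dark blue. Pkm lies highest, between 1425 and 1493 FPKM, Gapdh lies far below its neighbours in the pathway, and P4ha2 lies lowest, between 0.227 and 0.373 FPKM.

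The levels of the glycolytic enzymes spanned a wide range, as the plot of levels by library shows. Pyruvate kinase Pkm was the most abundant, with 1436 and 1425 FPKM with 1,5-AG and 1467 and 1493 FPKM in control. Ldha (lactate dehydrogenase), Pgk1 (phosphoglycerate kinase), Aldoa, Tpi1 (triosephosphate isomerase), Eno1 and Pgam1 (phosphoglycerate mutase) followed. In mean FPKM with 1,5-AG, Pgam1 and Eno1 stood at 473.3 ± 15.8 and 473.1 ± 3.91 (SD, n = 2), so these neighbours in the order did not differ beyond their spread. Gpi1, the isomerase that acts on the product of hexokinase, came next at 112.2 ± 0.941 FPKM with 1,5-AG and 110.1 ± 1.31 FPKM in control (SD, n = 2 each). The 12 measured enzymes other than Gapdh summed to 5605 and 5551 FPKM with 1,5-AG, against 5362 and 5462 FPKM in control. That sum was 1.75% to 1.76% of all FPKM with 1,5-AG and 1.69% to 1.74% in control, a small separation.

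Phosphofructokinase, the main control point of the pathway, is made from 3 genes. Pfkl, the liver type, had 59.0 and 52.6 FPKM with 1,5-AG and 53.0 and 51.3 FPKM in control, and the groups overlapped. Pfkp, the platelet type, had 40.4 and 40.7 FPKM with 1,5-AG, against 33.1 and 35.4 FPKM in control. Both 1,5-AG libraries lay above both controls (log2 difference 0.24, SE 0.05), with a limma adjusted p of 0.0956 and a voom adjusted p of 0.000358. Pfkm, the muscle type, had 10.1 and 10.7 FPKM with 1,5-AG and 11.4 and 11.2 FPKM in control, both treated libraries being lower (log2 difference -0.11, limma adjusted p = 0.366). Pfkp took 36.9% and 39.1% of the summed phosphofructokinase FPKM with 1,5-AG, against 33.9% and 36.2% in control. Pfkm took 9.24% and 10.3% with 1,5-AG, against 11.7% and 11.5% in control. The size and order of isozyme shares depend on the merged exon lengths that scale FPKM, 13401 bases for Pfkp and 6675 for Pfkl. By fragments Pfkp stood above Pfkl, at 7915 and 8243 against 5759 and 5309 with 1,5-AG. In control it had 6719 and 7702, against 5368 and 5559 for Pfkl.

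Pfkfb3 and Pfkfb4 make and break down fructose 2,6-bisphosphate, the activator of phosphofructokinase, and both are textbook HIF-1 targets. Pfkfb3 had 7.68 and 6.83 FPKM with 1,5-AG, against 6.75 and 6.67 FPKM in control (log2 difference 0.10, limma adjusted p = 0.531). Pfkfb4 had 5.56 and 5.29 FPKM with 1,5-AG, against 5.93 and 6.37 FPKM in control (log2 difference -0.15, limma adjusted p = 0.312). Neither passed, and the pair stood on opposite sides of control without overlap. The Pfkfb3 share of their sum was 58.0% and 56.4% with 1,5-AG and 53.3% and 51.1% in control.

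Aldolase splits fructose 1,6-bisphosphate. Aldoc, the brain-type isozyme (chromosome 11, 78322968 to 78327781, mm10), had 31.3 and 31.1 FPKM with 1,5-AG, against 38.9 and 38.8 FPKM in control. The replicates of each group nearly coincided and the groups were well apart. Aldoc fell by 0.31 on the log2(FPKM + 1) scale (SE 0.04, limma adjusted p = 0.0408), the only glycolytic gene of the 19 measured that passed. The main isozyme Aldoa had 569.6 and 573.6 FPKM with 1,5-AG and 561.5 and 571.5 FPKM in control, with overlapping groups (log2 difference 0.013, limma adjusted p = 0.875). The Aldoc share of aldolase FPKM was 5.21% and 5.15% with 1,5-AG, against 6.48% and 6.36% in control. With 2 libraries against 2, an exact permutation of such a share cannot give a two-sided p below 1 in 3.

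**Figure D2:**
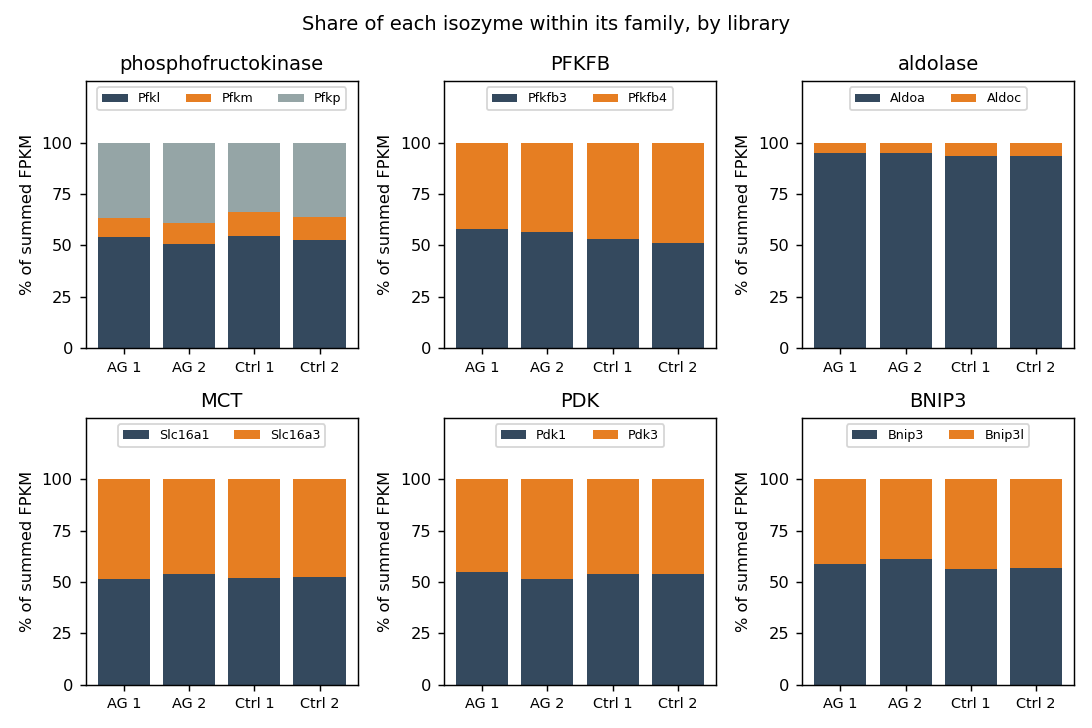
Share of each isozyme in the summed FPKM of its family (stacked bars, percent) in the 2 1,5-AG libraries and then the 2 control libraries. The Aldoc share is 5.15% to 5.21% with 1,5-AG and 6.36% to 6.48% in control, whereas the shares within the lactate transporters (MCT) overlap. The size of a share depends on the merged exon lengths that scale FPKM.

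In the lower part of the pathway the differences were small and mostly positive. Tpi1 had 522.4 and 503.5 FPKM with 1,5-AG, against 488.6 and 498.8 FPKM in control (log2 difference 0.055). Pgk1 had 847.4 and 869.5 FPKM with 1,5-AG, against 788.5 and 832.5 FPKM in control (0.083). Pgam1 had 484.5 and 462.1 FPKM with 1,5-AG, against 455.7 and 434.4 FPKM in control (0.089). In each of the 3 the treated libraries lay above the controls, as they also did for Gpi1 (0.027) and Eno1 (0.032). None of the 5 passed (limma adjusted p 0.364 to 0.738). Over all genes tested, both treated libraries lay above both controls in 24.2% and below them in 25.4%. Of 477 genes with a mean of at least 100 FPKM, where these enzymes lie, 228 were above and 84 below. Pkm lay below control in both treated libraries, at a log2 difference of -0.049 (limma adjusted p = 0.472).

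Ldha, which reduces pyruvate to lactate, had 1017 and 999.2 FPKM with 1,5-AG, against 889.7 and 924.5 FPKM in control. The groups did not overlap, and the log2 difference of 0.15 (SE 0.04) had a limma adjusted p of 0.121. On fragments recovered from the FPKM, fitted with limma's voom, Ldha passed at an adjusted p of 0.0011. The lactate transporter genes stood close to each other. Slc16a1, encoding MCT1, had 88.6 and 89.1 FPKM with 1,5-AG and 83.0 and 81.2 FPKM in control (log2 difference 0.11, limma adjusted p = 0.199). Slc16a3, encoding the exporter MCT4, had 83.8 and 76.7 FPKM with 1,5-AG and 76.6 and 73.1 FPKM in control (0.098, limma adjusted p = 0.437). Pdk1 and Pdk3, kinases that shut pyruvate out of the mitochondrial dehydrogenase, overlapped between groups. Pdk1 had 20.8 and 19.7 FPKM with 1,5-AG and 20.8 and 19.9 FPKM in control, and Pdk3 had 17.2 and 18.4 FPKM with 1,5-AG and 17.9 and 17.2 FPKM in control.

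Gapdh, usually among the most abundant genes of a cell, had 23.4 and 23.8 FPKM with 1,5-AG and 20.7 and 20.4 FPKM in control. This corresponded to 1416 and 1489 fragments with 1,5-AG and to 1295 and 1370 in control. Stretches of 100 bases were pooled over all annotated transcripts of a gene, so the shared part of any single transcript may be larger or smaller. Of the 4958 such stretches of Gapdh, 20.9% also occurred in transcripts of 89 other genes, 82 of them pseudogenes. The 70 of these genes in the table held 22840 and 23302 fragments with 1,5-AG and 22813 and 24400 in control, far more than Gapdh itself. The sources used here do not give how reads with several equal matches were counted, so the level of Gapdh and its log2 difference of 0.19 (SE 0.04, limma adjusted p = 0.109, voom adjusted p = 0.0279) are uncertain. The same limit held for Pgk1, with 51.7% of such stretches shared, Pgam1 with 33.9%, Eno1 with 20.4% and Pkm with 12.3%. Among the hypoxia genes it held for Bnip3 with 24.6%, Higd1a with 19.9%, Bnip3l with 14.0% and Ankrd37 with 10.8%. Unlike those of Gapdh, the partners of these genes held fewer fragments than the gene itself. In AG replicate 1 the partners held 522 against 27793 for Pgk1, 542 against 14037 for Pgam1 and 22821 against 37412 for Eno1. The main partner of Eno1, the near-identical Eno1b, had 432.7 and 406.8 FPKM with 1,5-AG and 406.4 and 389.1 FPKM in control. Ddit4, Vegfa, Ero1l, Adm, Aldoc and P4ha1 shared no such stretch with another gene, Ldha shared 0.59% and Pfkp 4.66%.

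Hif1a, the gene of the oxygen-regulated subunit, had 19.8 and 19.9 FPKM with 1,5-AG, against 16.9 and 17.1 FPKM in control. The groups were clearly apart (log2 difference 0.21, SE 0.04), with a limma adjusted p of 0.0920 and a voom adjusted p of 0.00973. RNA of Hif1a says nothing of its protein, which is the level at which oxygen acts. Egln1, the main prolyl hydroxylase, had 11.6 and 13.9 FPKM with 1,5-AG and 11.9 and 12.5 FPKM in control, with overlap. Egln3, a hydroxylase that hypoxia strongly raises, was near the detection limit, at 16 and 16 fragments with 1,5-AG and 16 and 26 in control.

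The hypoxia effectors comprised 13 genes. For those the results turn on, and for Ldha and Aldoc as the glycolytic contrast, the promoter window of the RefSeq start farthest upstream is shown (GRCm38.p6, 250 bases before to 50 after the start, 5′ to 3′ on the gene's strand). Capitals mark ACGTG and GCGTG, the core letters of HIF binding, on either strand (CACGT and CACGC on the other strand), and ACGTG overlaps itself on the opposite strand in CACGTG.
Ddit4, chr10:59951721-59952020, minus strand: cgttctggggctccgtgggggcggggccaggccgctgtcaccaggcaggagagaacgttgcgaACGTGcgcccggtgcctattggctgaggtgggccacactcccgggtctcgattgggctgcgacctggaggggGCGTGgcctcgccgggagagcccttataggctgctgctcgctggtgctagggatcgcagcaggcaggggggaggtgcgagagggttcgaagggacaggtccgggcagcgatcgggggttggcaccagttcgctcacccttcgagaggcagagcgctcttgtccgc
Vegfa, chr17:46032328-46032627, minus strand: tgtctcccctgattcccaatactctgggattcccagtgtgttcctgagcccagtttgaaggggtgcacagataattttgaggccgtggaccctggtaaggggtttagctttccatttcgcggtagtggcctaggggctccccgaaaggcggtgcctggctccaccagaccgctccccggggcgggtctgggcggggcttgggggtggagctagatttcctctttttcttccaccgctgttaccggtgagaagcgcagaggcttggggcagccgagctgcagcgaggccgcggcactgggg
Ero1l, chr14:45318523-45318822, minus strand: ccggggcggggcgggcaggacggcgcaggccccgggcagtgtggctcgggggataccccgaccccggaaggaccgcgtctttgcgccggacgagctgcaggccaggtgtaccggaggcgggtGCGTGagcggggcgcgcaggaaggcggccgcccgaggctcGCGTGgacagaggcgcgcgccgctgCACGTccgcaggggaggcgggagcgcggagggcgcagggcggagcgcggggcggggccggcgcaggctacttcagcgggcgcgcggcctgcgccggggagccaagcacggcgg
Adm, chr7:110627407-110627706, plus strand: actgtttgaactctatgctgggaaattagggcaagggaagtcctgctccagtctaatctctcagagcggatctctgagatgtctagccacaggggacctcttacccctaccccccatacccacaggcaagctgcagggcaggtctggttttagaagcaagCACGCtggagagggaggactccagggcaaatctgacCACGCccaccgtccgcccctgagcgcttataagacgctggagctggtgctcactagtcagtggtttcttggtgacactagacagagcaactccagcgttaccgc
Ldha, chr7:46845554-46845853, plus strand: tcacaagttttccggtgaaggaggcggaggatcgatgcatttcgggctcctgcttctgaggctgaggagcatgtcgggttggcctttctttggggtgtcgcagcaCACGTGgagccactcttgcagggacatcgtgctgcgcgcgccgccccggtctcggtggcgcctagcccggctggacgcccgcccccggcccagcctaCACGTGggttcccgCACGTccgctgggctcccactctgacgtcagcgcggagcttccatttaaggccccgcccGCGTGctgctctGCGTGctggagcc
Aldoc, chr11:78322823-78323122, plus strand: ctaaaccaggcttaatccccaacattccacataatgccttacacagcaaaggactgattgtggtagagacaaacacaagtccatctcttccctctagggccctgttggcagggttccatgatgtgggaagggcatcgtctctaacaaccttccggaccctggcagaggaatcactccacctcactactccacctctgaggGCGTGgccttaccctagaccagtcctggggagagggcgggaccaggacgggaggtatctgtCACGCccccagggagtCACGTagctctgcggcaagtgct

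These windows differed in the marked letters. The Ldha window held 7 matches, 5 of them ACGTG on either strand. The Ero1l and Aldoc windows held 3 each, the Ddit4 and Adm windows 2 each, and the Vegfa window 0. Each CACGTG counted as 2 matches, which raised the Ldha count, and no other window shown held CACGTG. The windows shown for Aldoc, which fell, and for 4 of the 5 genes with higher values in the treated libraries carried the letters. A second RefSeq window of Vegfa, at an internal start, held 2 matches, 1 of them ACGTG. Over the 34 members with a RefSeq window (those of Bnip3l and Ndrg1 were not analysed), 28 or 82.4% of the windows farthest upstream held either motif, and 58.8% held ACGTG. Of 7616 tested protein-coding genes with a window, 66.4% held either motif and 27.5% held ACGTG, and over all 27025 windows farthest upstream 43.8% held either. The share was 80.0% among 20 glycolytic genes and 85.7% among 14 genes of the non-glycolytic class. The 34 members include Ldhb, Adm, Egln3 and P4ha2, which were not among the tested genes. A match is a description of letters, not a bound site, and a count of 0 says nothing of letters outside the window.

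Ddit4 (chromosome 10, 59949669 to 59951834, mm10) had 5.54 and 6.15 FPKM with 1,5-AG, against 3.64 and 3.41 FPKM in control. Both treated libraries were well above both controls. Ddit4 rose by a log2 difference of 0.60 (SE 0.08, limma adjusted p = 0.0453), resting on 142 and 163 fragments with 1,5-AG and 97 and 97 in control. Vegfa (chromosome 17, 46016993 to 46032369) had 12.1 and 11.6 FPKM with 1,5-AG, against 8.11 and 8.76 FPKM in control. It rose by 0.44 (SE 0.06, limma adjusted p = 0.0484), again with groups apart. Ero1l, now also named Ero1a (chromosome 14, 45283087 to 45318771), had 35.4 and 36.6 FPKM with 1,5-AG, against 28.0 and 29.1 FPKM in control. It rose by 0.32 (SE 0.04, limma adjusted p = 0.0489). The Vegfa and Ero1l calls ended under quantile normalization, and that of Ero1l also ended at a pseudocount of 0.1.

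**Figure D3:**
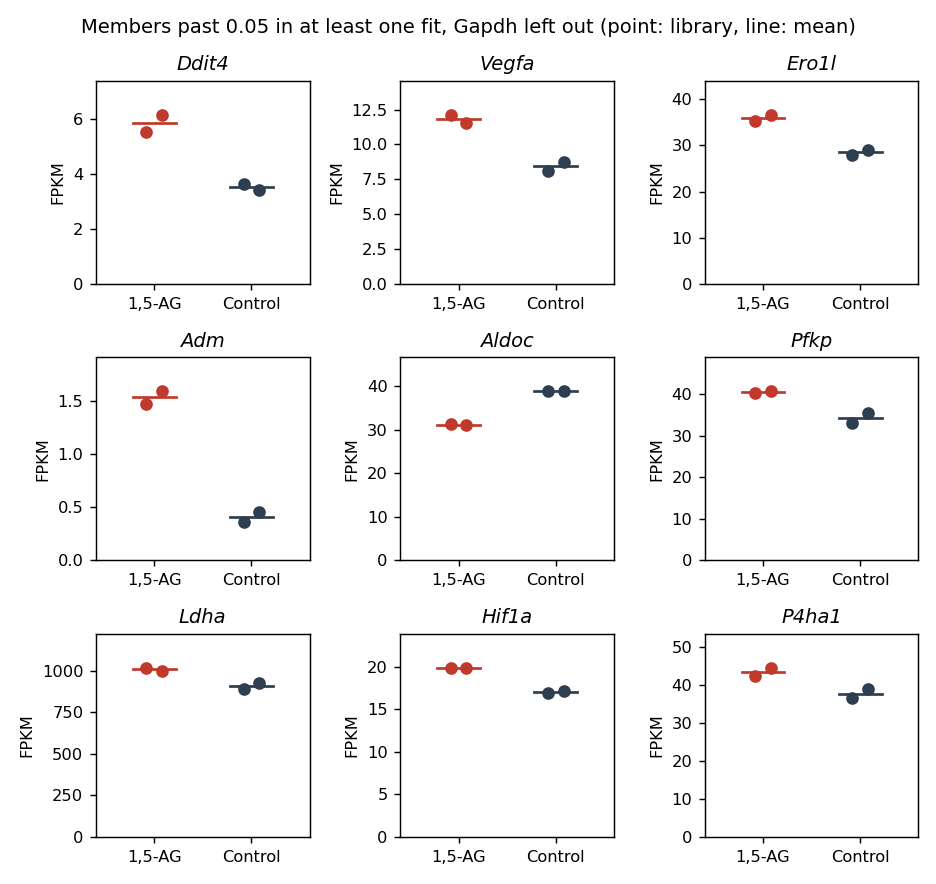
FPKM of 9 genes (panels, axes from 0) in the 2 1,5-AG libraries (red, left) and the 2 control libraries (dark blue, right); points are libraries and lines are means. Ddit4 lies at 5.54 and 6.15 FPKM with 1,5-AG, above 3.64 and 3.41 FPKM in control, and Aldoc is the panel in which the treated libraries lie lower.

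Ddit4, Vegfa and Ero1l are also known as genes that ATF4 or CHOP, transcription factors of the amino acid and unfolded protein responses, can raise. Of 23 tested ATF4 and CHOP targets 20 had positive differences, against 49.1% of all genes tested, with a median of 0.22. In 18 of the 23 both treated libraries lay above both controls, against 24.2% of all genes. By limma 1 passed in each direction, where 0.809% of all genes tested were called higher and 0.648% lower. By voom 10 were called higher and 1 lower, where voom called 3.65% of all genes higher and 4.66% lower. The asparagine synthetase gene Asns had 79.1 and 82.9 FPKM with 1,5-AG, against 58.6 and 63.4 FPKM in control (log2 difference 0.40, limma adjusted p = 0.0459). Atf3, a stress-induced repressor, had 8.93 and 9.34 FPKM with 1,5-AG, against 13.4 and 13.9 FPKM in control (-0.53, limma adjusted p = 0.0272). The part of this group in the hypoxia genes was not tested.

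Adm, encoding the vasodilator peptide adrenomedullin, had the largest relative difference of the 35 genes. It had 1.48 and 1.59 FPKM with 1,5-AG, against 0.367 and 0.457 FPKM in control, a ratio of means of 3.73. This rested on 35 and 39 fragments with 1,5-AG and 9 and 12 in control. Its mean lay just below the filter. Without a filter on low values its log2(FPKM + 1) difference was 0.85 with a limma adjusted p of 0.134, in a fit that called 0 of all genes (2627 at an unadjusted p under 0.05). In voom on genes with at least 10 fragments in 2 libraries, a fit chosen after the data were seen, its fitted log2 difference was 1.86 (SE 0.38, adjusted p = 0.00385), where 3.09% of 12771 genes were called higher. Adm met that minimum through the 1,5-AG libraries in which it is high, so this fit lends no support to a rise. P4ha2, a prolyl hydroxylase of collagen, had 34 and 33 fragments with 1,5-AG against 23 and 23 in control (adjusted p = 0.293 in the same fit).

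Its abundant relative P4ha1 had 42.3 and 44.5 FPKM with 1,5-AG, against 36.5 and 38.9 FPKM in control (log2 difference 0.20, SE 0.05, limma adjusted p = 0.145). Higd1a, a mitochondrial inner membrane protein, had 17.2 and 17.8 FPKM with 1,5-AG, against 15.3 and 15.3 FPKM in control (0.18, limma adjusted p = 0.142). In both genes the groups were apart, and in P4ha1 the difference passed under voom (adjusted p = 0.0132). Bnip3, a receptor for mitophagy, had 37.1 and 43.5 FPKM with 1,5-AG and 34.4 and 37.4 FPKM in control. Its groups overlapped, as did those of its relative Bnip3l, with 26.2 and 27.5 FPKM with 1,5-AG and 26.7 and 28.6 FPKM in control.

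The remaining hypoxia effectors among the members, Ndrg1, Kdm3a, Mxi1 and Ankrd37, overlapped between groups. Ndrg1, widely used as a marker of hypoxia, had 9.85 and 11.9 FPKM with 1,5-AG and 11.8 and 14.0 FPKM in control, at a log2 difference of -0.23 (limma adjusted p = 0.374). Kdm3a, a histone H3 lysine demethylase, had 7.30 and 7.51 FPKM with 1,5-AG and 7.21 and 7.60 FPKM in control. Mxi1, an antagonist of MYC, had 11.7 and 11.0 FPKM with 1,5-AG and 12.4 and 11.7 FPKM in control. Ankrd37 was low and variable, at 2.62 and 3.40 FPKM with 1,5-AG and 2.10 and 3.16 FPKM in control.

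The glycolytic and the non-glycolytic HIF-1 targets were then set side by side, leaving out Hif1a itself and Pfkm, Pfkp, Slc16a1 and Ldhb, which were not counted as textbook targets. Of 16 glycolytic targets tested, 12 had positive differences, 0 were called higher and 1 lower, and the median log2 difference was 0.044. Of 12 non-glycolytic targets tested, of 15 listed, 9 had positive differences, 3 were called higher and 0 lower, and the median was 0.16. Over all genes tested 49.1% of differences were positive, 0.809% were called higher and 0.648% lower, and the median was -0.0025. Without AG replicate 2 the order of the classes turned round, with a median of 0.053 for the glycolytic and 0.031 for the non-glycolytic targets. Without Ctrl replicate 1 they were 0.044 and 0.061 in the same order. Without AG replicate 1 the medians were 0.026 for the glycolytic and 0.22 for the non-glycolytic targets, so which class stood higher depended on 1 library. No test of the difference between the classes was made, since the genes were chosen with earlier results of these data known.

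**Figure D4:**
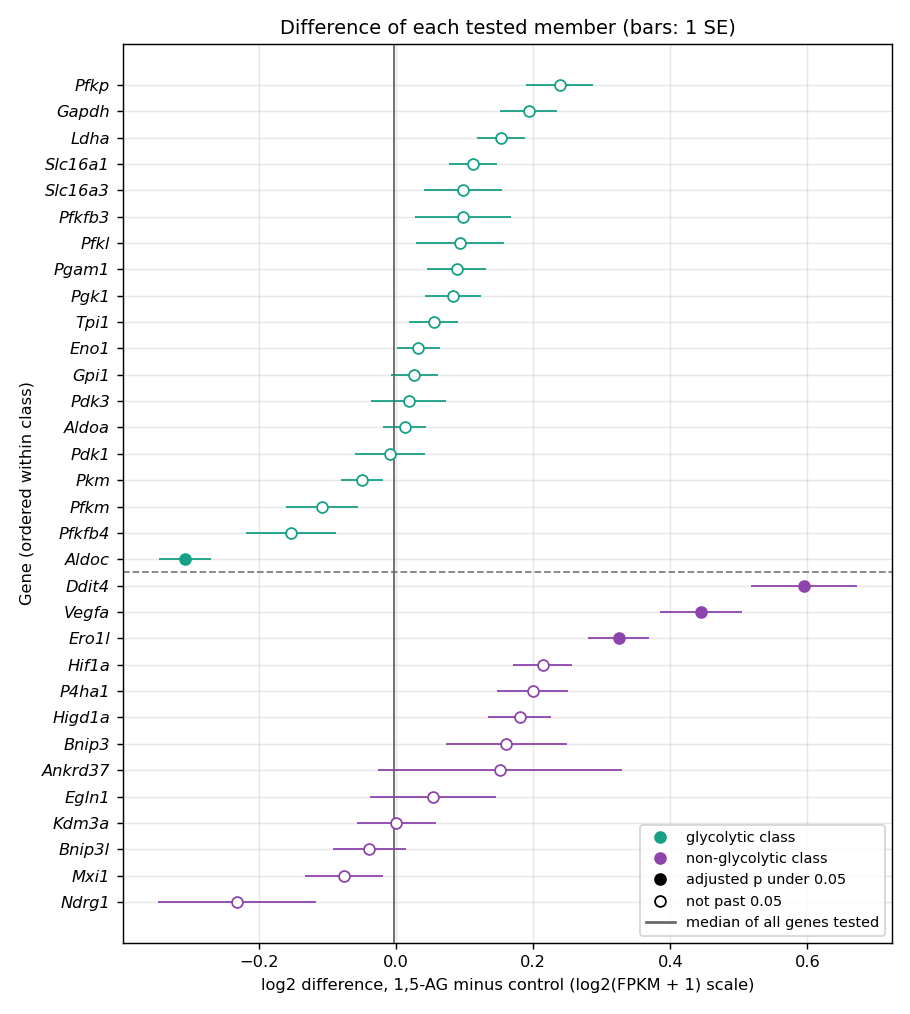
Log2 difference (1,5-AG minus control, log2(FPKM + 1) scale, bars 1 SE) of the 32 tested genes, ordered within the glycolytic class (green) and the non-glycolytic class (purple), with filled points for adjusted p under 0.05. Ddit4, Vegfa and Ero1l are filled at 0.60, 0.44 and 0.32, Aldoc is filled at -0.31, and the vertical line marks the median of all genes tested, -0.0025.

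In 17 of the 32 tested genes both 1,5-AG libraries lay above both controls, which held for 24.2% of all genes tested. In 4 they lay below, against 25.4% of all genes, and in 11 the groups overlapped. Of the 17, 11 were glycolytic. Many of these are abundant, and abundant genes leaned the same way. Of 477 genes with a mean of at least 100 FPKM, 325 had positive differences, and in 228 both 1,5-AG libraries lay above both controls. The median of the 477 was 0.048, near the 0.055 of the 13 measured glycolytic enzymes, not all of which reach 100 FPKM. The voom fit called 8 of the 32 higher and 1 lower, where it called 3.65% of all genes higher and 4.66% lower. Besides the 4 genes above these were Gapdh, Hif1a, Ldha, P4ha1 and Pfkp.

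The rest of the pathway was read from lists of other genes. Of 6 genes of hexose entry 0 passed by limma, where 1.46% of all genes tested passed. By voom 1 of the 6 was called higher, where 3.65% of all genes were called higher. Slc2a1, the glucose transporter GLUT1 and a HIF-1 target, had 38.5 and 40.7 FPKM with 1,5-AG, against 35.7 and 32.5 FPKM in control (log2 difference 0.21, limma adjusted p = 0.177, voom adjusted p = 0.0177). The hexokinase genes Hk1 (32.2 and 31.3 FPKM with 1,5-AG, 30.4 and 29.3 FPKM in control) and Hk2 (27.1 and 26.0 FPKM with 1,5-AG, 26.0 and 25.2 FPKM in control) differed by 0.087 and 0.049. Hk3 had 16.9 and 17.1 FPKM with 1,5-AG, against 19.8 and 18.3 FPKM in control (-0.16, limma adjusted p = 0.237).

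By limma 0.809% of all genes tested were called higher and 0.648% lower. Of 10 tested genes of other glycolytic and pyruvate enzymes, 1 fell and 0 rose. This was Eno3, the muscle enolase, with 15.1 and 14.3 FPKM with 1,5-AG, against 20.6 and 23.5 FPKM in control (log2 difference -0.55, SE 0.07, limma adjusted p = 0.0472). Like Aldoc, Eno3 is a minor isozyme of its step in these cells by FPKM. Of 9 tested genes of the HIF machinery 0 passed by limma, with a median difference of 0.025. Voom called 4.66% of all genes lower, and 1 of these 9. This was Vhl, named after its values were seen, the ubiquitin ligase subunit that binds hydroxylated HIF-1 alpha. It had 8.56 and 8.30 FPKM with 1,5-AG, against 10.4 and 10.2 FPKM in control, with both treated libraries lower (log2 difference -0.26, limma adjusted p = 0.0908, voom adjusted p = 0.0492). Of 14 tested further HIF-1 targets 0 passed by limma, 10 had positive differences, against 49.1% of all genes, and the median was 0.11. In 10 of the 14 both treated libraries lay above both controls, against 24.2% of all genes. Voom called 3.65% of all genes higher, and 1 of these 14. This was Ak4, an adenylate kinase of mitochondria, also named after its values were seen. It had 32.2 and 32.1 FPKM with 1,5-AG, against 27.4 and 28.2 FPKM in control (log2 difference 0.20, limma adjusted p = 0.0969, voom adjusted p = 0.0110).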

How the data were processed

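Polyadenylated RNA was measured by stranded RNA sequencing, per the labels' protocols. The authors deposited FPKM, 1 column per library. The submitters' processing notes name the tools Cufflinks, HISAT2, HTSeq and Trimmomatic and the build mm10, and the sources used here give neither their versions nor the strand setting. Of 21523 identifiers 21508 matched GENCODE M21 (mm10), which gave symbols, coordinates and merged exon lengths. FPKM multiplied by exon length gave whole fragments, within 0.02, for 99.4% of genes in all 4 libraries. At this depth 3 fragments in 2 kb of exon correspond to 0.0924 to 0.103 FPKM, a floor for counting error only.

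Differences were fitted in R 4.3.3 with limma 3.58.1, on log2(FPKM + 1), without covariates and with the prior variance following mean expression (3.06 prior degrees of freedom), two-sided, at a mean of at least 1 FPKM and a Benjamini-Hochberg adjusted threshold of 0.05. Differences are 1,5-AG minus control, a scale that understates changes of low genes. Of rows sharing a symbol the highest was used (8 left out). Members, lists and alternatives were chosen with earlier results of these data known. All members are accounted for, with full statistics for those past 0.05 in limma or voom. Other list genes are named where they passed in limma, with Slc2a1, Hk1, Hk2 and Hk3. Vhl, Ak4 and the macrophage markers besides Lyz2 are named outside this rule. ATF4 and CHOP targets past 0.05 in voom alone are counted but not named. Alternatives were another pseudocount, filters, scalings, no variance trend, voom, a replicate block and leaving out each library. Promoters are from RefSeq (GRCm38.p6).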

Additional observations from a re-analysis of the deposited data

How the results depend on the processing

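The 162 genes called became 0 without a filter on low values (smallest adjusted p 0.0885, 2627 genes at an unadjusted p under 0.05), 360 at a mean of at least 5 FPKM, 5 without the variance trend, 924 with voom, 914 with voom on genes with at least 10 fragments in 2 libraries (chosen after the data were seen), 312 with the replicate block and 2 to 10 with 1 library left out. The 3 members called higher became 0 without a filter, 0 without the variance trend, 1 under quantile normalization, 8 with voom, 9 with voom on genes with at least 10 fragments (the ninth being Adm, which met that minimum through the 1,5-AG libraries) and 0 with any 1 library left out. The 1 called lower, Aldoc, became 0 without a filter, 0 without the variance trend and 0 with any 1 library left out. With the replicate block the members called were the same 3 higher and 1 lower; deviations of same-numbered libraries correlated at 0.0122 and the labels do not say that numbers mark a shared culture. The median of the glycolytic targets, 0.044, was 0.016 under quantile normalization and 0.026 to 0.053 with 1 library left out, and that of the non-glycolytic targets, 0.16, was 0.031 to 0.22 with 1 library left out. Leaving out a library assumes that the lone sample varies like the other group. Over the 10 named members, 79 refitted values stayed on the same side of 0.05, 27 no longer passed, 11 newly passed and 0 changed sign. All 27 belonged to Aldoc, Ddit4, Ero1l and Vegfa, the genes called in the main fit. Aldoc passed in 7 of 13 refits, Ddit4 in 6 of 12, Vegfa in 6 of 13 and Ero1l in 5 of 13. Most of the 79 came from genes not called in the main fit that stayed uncalled. Beyond the fewer genes or libraries that some settings impose, the cause was not tested. Depth limits Adm, Egln3 and P4ha2.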
